A study of Danio rerio with 12 samples.

Results

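Among 12 pools of zebrafish embryos, 4 held at least 30 CPM of mmp9, the gene for the gelatinase matrix metalloproteinase 9, and the other 8 held less. CPM is a gene's reads scaled to its pool's library total, here after TMM adjustment of that total (trimmed mean of M-values). The 4 pools were control 3, empagliflozin 3, canagliflozin 1 and canagliflozin 2, so each of the 3 treatment groups was represented on both sides. They were picked by a measured level, not by a label, and are called the high-mmp9 pools here. The study exposed embryos to empagliflozin or canagliflozin, both inhibitors of the sodium-glucose cotransporter SGLT2, and measured polyadenylated RNA by stranded sequencing. Each group had 4 pools of 5 embryos. The control group received the solvent DMSO, and the drug groups received 50 µM of 1 compound. All embryos were healthy, GFP-positive and freed from the chorion, were treated from 23 hours post fertilization (hpf), and were lysed at 27 hpf, after 4 h. The line that carries GFP, the clutch and the day of each pool are not given in the labels.

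Matrix metalloproteinases are secreted or membrane-bound proteases that cleave the extracellular matrix, and the TIMP proteins inhibit them. In zebrafish, mmp9, mmp13a, the itaconate-producing enzyme gene irg1l and the cytokine gene il1b are known for their induction at wounds and during inflammation, in leukocytes and in the epidermis. AP-1 is a dimer of Fos, Jun and ATF family proteins that is induced within minutes by stress and growth signals. Cytokines that act through gp130 (il6st) and the transcription factor Stat3 induce socs3, which in turn inhibits the receptor.

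The level of mmp9 (Entrez gene 406397) was 92.0 CPM in control 3, 51.5 in empagliflozin 3, 67.2 in canagliflozin 1 and 52.3 in canagliflozin 2. In the other 8 pools it ranged from 4.87 CPM in canagliflozin 4 to 13.7 in control 2. The pool just inside the threshold was thus empagliflozin 3 and the pool just outside it was control 2, with no pool between 13.7 and 51.5 CPM. Since mmp9 chose the pools, its difference is no evidence of anything further.

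The 3 other genes given as markers of the high-mmp9 pools are described here without a test, since they were named with these data known. They are still counted in the totals and gene lists below, where their calls are no evidence of anything further. The collagenase gene mmp13a (387293) was at 50.4 CPM in control 3, 11.7 in empagliflozin 3, 15.9 in canagliflozin 1 and 11.2 in canagliflozin 2, against 0.436 to 1.97 in the other 8 pools. The level of irg1l (562007) was 78.4 CPM in control 3, 13.9 in empagliflozin 3, 9.19 in canagliflozin 1 and 28.1 in canagliflozin 2, against 1.38 to 9.89 in the others. For irg1l the pools overlapped, because control 2 (9.89 CPM) was above canagliflozin 1. The level of il1b (405770) was 4.49, 2.83, 2.64 and 1.37 CPM in the same 4 pools, against 0.251 to 0.625 CPM in the other 8. These il1b values rest on 22 to 87 reads in the high-mmp9 pools and 6 to 15 in the others. For mmp13a and il1b the 2 sets of pools did not overlap, and control 3 was the highest pool for all 4 genes.

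**Figure D1:**
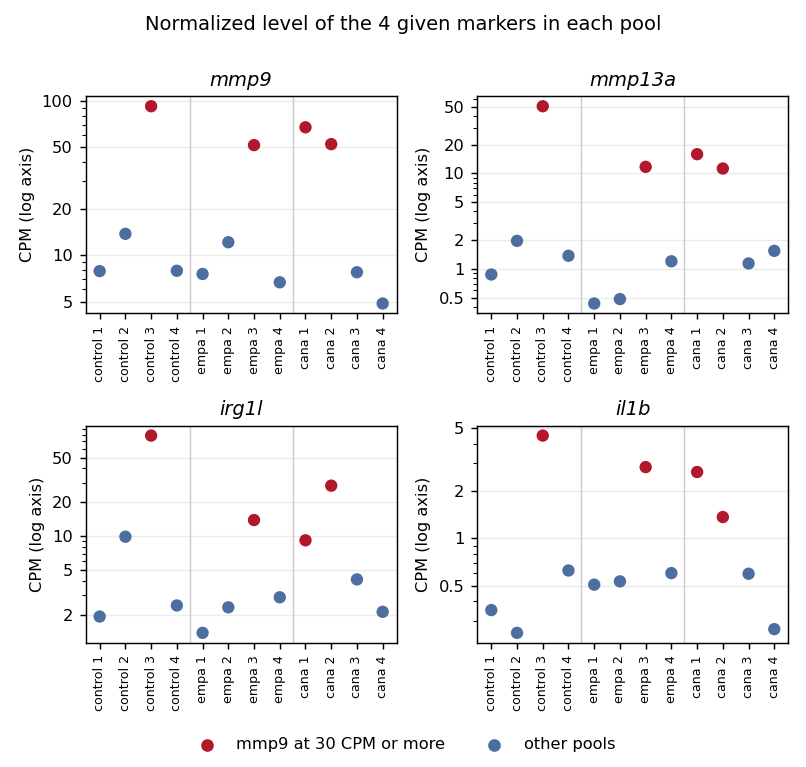
Level of mmp9, mmp13a, irg1l and il1b in each of the 12 pools, in CPM on log axes; red points are the 4 pools with mmp9 at 30 CPM or more, blue points the other 8, and grey lines part the treatment groups. Control 3 is the highest pool in all 4 panels, and in the irg1l panel control 2 (9.89 CPM) lies above canagliflozin 1 (9.19 CPM).

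Sequencing depth was 16149682 to 27842375 reads counted to genes per pool, and 16149682 to 21532470 in the high-mmp9 pools, so that 1 read was worth 0.0363 to 0.0621 CPM. A count of 0 allowed a level of up to 0.109 to 0.186 CPM (3 reads), which covers counting error only. Control 4 and canagliflozin 4, both among the other 8 pools, stood apart from the rest. On the first principal component, with treatment means removed, they were at 17.5 and 24.0, while the high-mmp9 pools lay between -10.04 and -4.32 and the remaining 6 between -5.30 and 2.02. The main counts are therefore given below with and without these 2 pools. On the second component, control 3 was lowest at -15.4, followed by empagliflozin 3 at -6.05, and control 1 was highest at 12.3.

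Across 11963 genes with a mean of at least 1 CPM, mmp9 set aside, 44 differed between the high-mmp9 pools and the others at an adjusted p under 0.05 (0.368% of genes; limma on log2(CPM + 1) with treatment as a covariate, Benjamini-Hochberg adjustment). Of these, 40 were higher (0.334%) and 4 were lower (0.0334%) in the high-mmp9 pools. At an unadjusted p under 0.05 there were 1208 genes. Besides mmp13a, irg1l and il1b, 41 genes passed, and 17 of the 40 higher genes differed by at least 1 on the log2(CPM + 1) scale. All 44 had the same sign within each of the 3 treatment groups. In 29 of the 40 higher genes every high-mmp9 pool lay above every other pool, as was so for 0.585% of all genes, and in 2 of the 4 lower genes every one lay below, against 0.192% of all genes. Without control 4 and canagliflozin 4 these were 30 of the 40 and 3 of the 4, and non-overlap comes more easily with fewer pools. Control 3 was the highest of the 12 pools for 36 of the 40. For the counts of shared sign, of fewer pools and of control 3, the share over all genes is not given here. Genes picked for their difference tend to show such patterns. In pooled embryos, more cells of a type and more RNA per cell cannot be told apart. The labels do not say that pools came from separate clutches, so the p-values measure the spread between these pools, which may be technical. A gene that passed moved with mmp9 across the pools, whatever set mmp9 apart, which was not tested.

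The count of 44 rested on single pools. Without control 3 it was 14, without canagliflozin 2 it was 20, and without empagliflozin 4 it was 29. Without control 4 and canagliflozin 4 it was 69, of which 41 were among the 44. Count tests on the recovered reads gave 49 genes in edgeR and 124 in DESeq2. In every one of the 28 alternatives that tested them, 12 of the 41 genes kept their call; socs3a and cyp24a1 were tested in 27, since their mean was under the minimum of 5 CPM in the other. The 12 were atf3, cbx7a, cyp24a1, fosab, fosl1a, junba, junbb, si:ch211-153b23.4, slc16a9b, socs3a, tcap and timp2b. The rest of the 41 lost their call in at least 1 alternative.

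**Figure D2:**
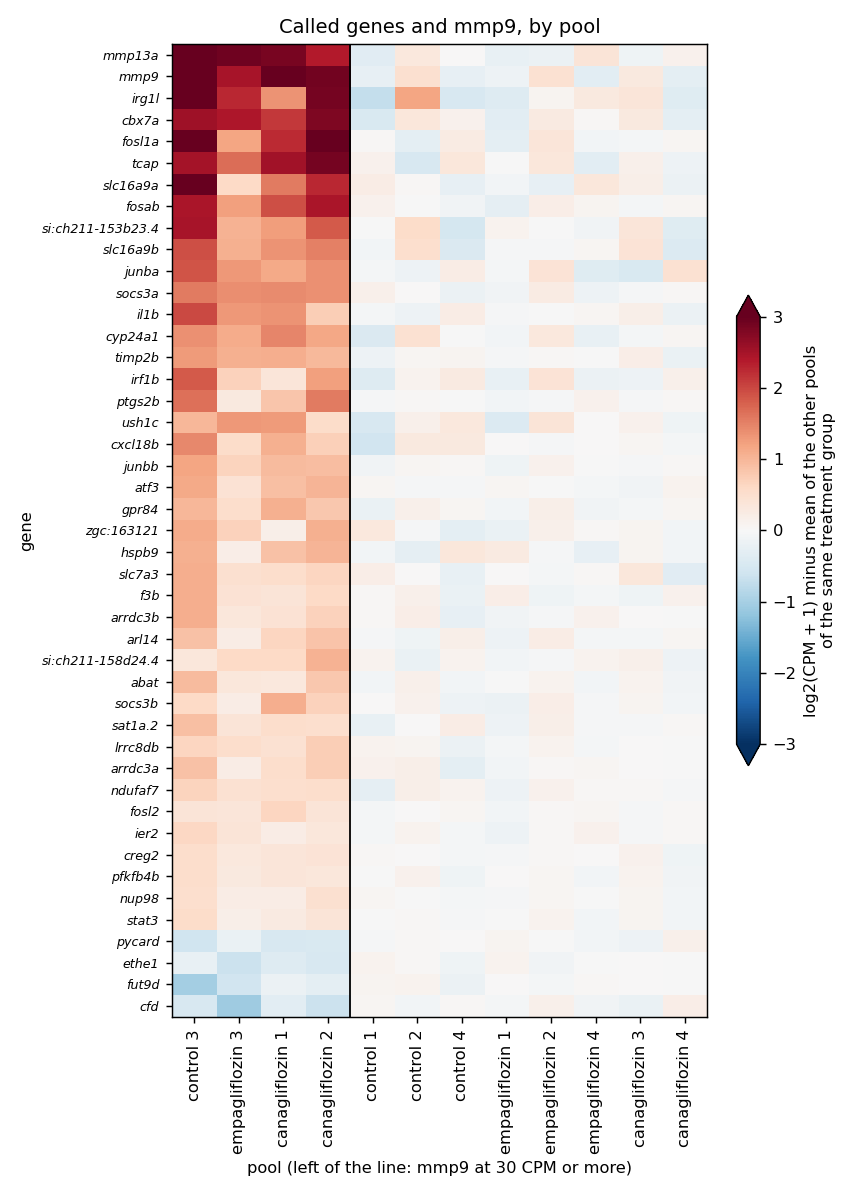
Heat map of mmp9 and the 44 genes that passed (rows) in each pool (columns; the 4 high-mmp9 pools stand left of the line), with colour showing log2(CPM + 1) less the mean of the other pools of the same treatment group. The 40 higher genes are on the red side and the 4 lower genes on the blue side in the 4 columns on the left, and control 2 is red for irg1l. Small differences are pale, as for arrdc3a in empagliflozin 3 (0.22).

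Of the other metalloproteinases and their inhibitors, timp2b alone passed. The level of timp2b (406650), a tissue inhibitor of metalloproteinases, was 34.1 CPM in control 3, 24.6 in empagliflozin 3, 28.2 in canagliflozin 1 and 26 in canagliflozin 2. In the other pools it was 10.9 to 14.8 CPM, with no overlap. Its difference was 1.11 ± 0.09 (log2 scale, SE), a 2.16-fold higher CPM + 1, with a limma adjusted p of 4.85e-06. Fold values in this text are ratios of CPM + 1, which lie below the ratio of CPM for higher genes, most so at low levels. Its paralogue timp2a differed by 0.28 (adjusted p 0.233) and did not pass. The gelatinase gene mmp2 differed by -0.03, the membrane-type genes mmp14a and mmp14b by -0.09 and -0.05, mmp23bb by 0.01 and mmp30 by -0.13, and none of these passed (limma adjusted p 0.581 to 0.976). Of the 33 fixed members of the list other than mmp9, 8 were tested, 2 passed as higher (mmp13a and timp2b) and 0 as lower, and the median difference was -0.01, beside 0.0046 over all genes tested. Over all genes tested, 0.334% were higher and 0.0334% lower. This list and those below were chosen with earlier results of these data known, and their counts were not tested against these shares.

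Several genes of the AP-1 family were higher in the high-mmp9 pools. The gene fosl1a (564241), which encodes the Fos family protein Fra-1, was at 24.5 CPM in control 3, 6.56 in empagliflozin 3, 12.1 in canagliflozin 1 and 22 in canagliflozin 2, against 1.51 to 3.30 CPM in the other pools. It did not overlap and differed by 2.33 ± 0.25 (SE), a 5.03-fold higher CPM + 1 (limma adjusted p 0.000175). Its mean was 16.3 CPM in the high-mmp9 pools and 2.13 CPM in the others. The c-Fos gene fosab (394198) was at 23.0, 9.55, 8.76 and 13 CPM in the same 4 pools and at 1.44 to 4.17 CPM in the others. Its difference was 1.98 ± 0.17, or 3.94-fold in CPM + 1 (adjusted p 1.42e-05), again without overlap.

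Both JunB genes passed as well. The level of junba (407086) was 18.8 CPM in control 3, 12.3 in empagliflozin 3, 8.57 in canagliflozin 1 and 10.25 in canagliflozin 2, and 2.14 to 6.26 CPM elsewhere (difference 1.46 ± 0.18, limma adjusted p 0.000656). That of junbb (336038) was 44.8, 28.2, 29.8 and 29.2 CPM, against 14.6 to 20.1 CPM (difference 0.93 ± 0.09, adjusted p 2.85e-05). For both genes the lowest high-mmp9 pool was above the highest of the other 8. The stress-induced factor gene atf3 (393939) was at 24.8 CPM in control 3, 14.9 in empagliflozin 3, 17.1 in canagliflozin 1 and 18.4 in canagliflozin 2, against 8.0 to 11.4 CPM (difference 0.85 ± 0.10, adjusted p 0.000492).

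The Fos family gene fosl2 was higher by 0.44 (limma adjusted p 0.0161) with overlapping pools, and jun, which encodes the AP-1 partner c-Jun, differed by 0.17 (adjusted p 0.405). The AP-1 repressor gene jdp2b differed by 0.50 (adjusted p 0.0879). Of 43 AP-1 and immediate-early transcription factors in the list, 32 were tested, 6 were higher and 0 lower, and the list's median difference was 0.04. Beside this, 0.334% of all genes tested were higher, with a median of 0.0046. The immediate-early gene ier2, which is not on that list, was higher by 0.42 (adjusted p 0.0460).

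In the Stat3 pathway, the feedback inhibitor gene socs3a moved most. Its level (335409) was 11.4 CPM in control 3, 6.30 in empagliflozin 3, 6.55 in canagliflozin 1 and 6.27 in canagliflozin 2, and 1.51 to 3.68 CPM in the other pools. The sets did not overlap, and the difference was 1.44 ± 0.11 (SE), or 2.71-fold in CPM + 1 (limma adjusted p 4.00e-06). Its paralogue socs3b was higher by 0.61 (adjusted p 0.0421), with overlap, and this call was lost in 18 of the 28 alternatives. The level of stat3 (30767) was 63.3, 50.2, 47.5 and 51.5 CPM in control 3, empagliflozin 3, canagliflozin 1 and canagliflozin 2, against 36.4 to 47.2 CPM (difference 0.35 ± 0.07, adjusted p 0.0436). The gap between the sets was narrow for stat3, with canagliflozin 1 at 47.5 CPM and empagliflozin 2 at 47.2. The stat3 call was lost in 17 of the 28 alternatives. The gp130 receptor gene il6st differed by 0.72 and missed the threshold (adjusted p 0.0602), although all 4 high-mmp9 pools were above the rest. Of 38 JAK-STAT and acute phase genes, 26 were tested, 3 were higher and 0 lower, and the median was 0.13, beside 0.334% higher and 0.0046 over all genes tested. The bZIP genes of the acute phase, cebpb and cebpd, differed by 0.55 and 0.44 (adjusted p 0.0512 and 0.0879).

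**Figure D3:**
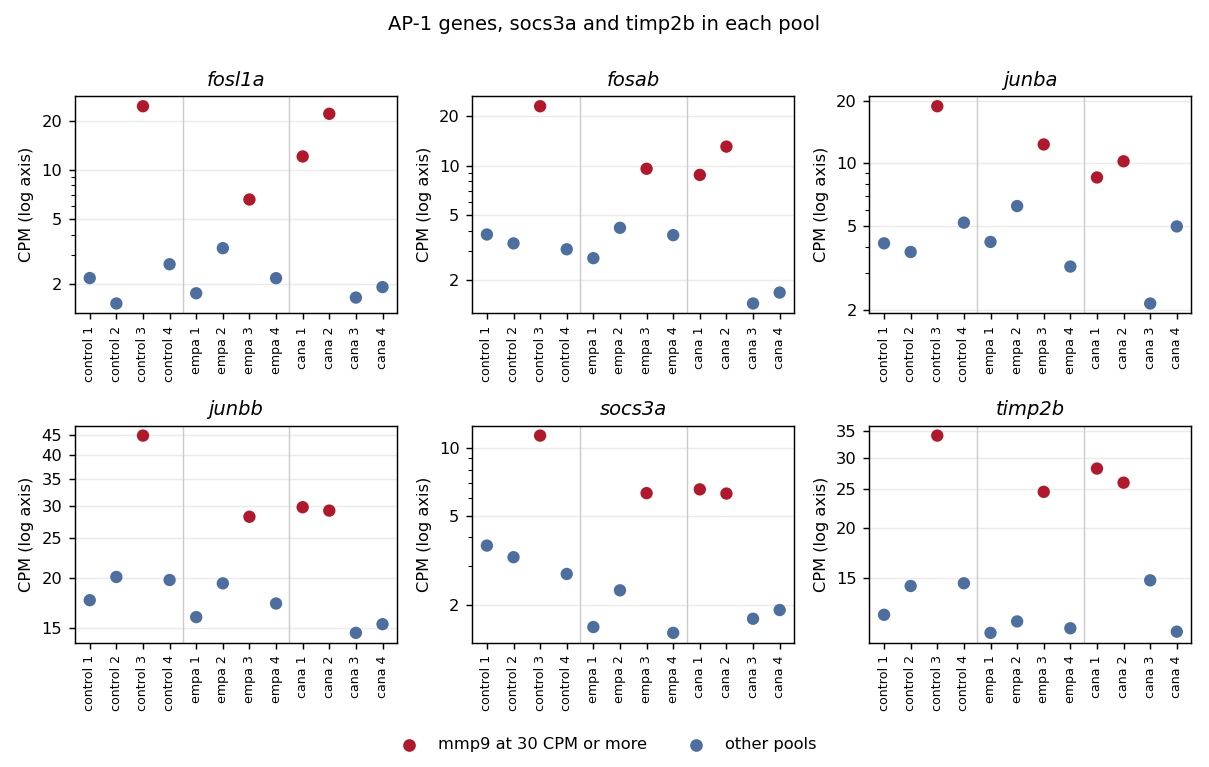
Level in each pool, in CPM on log axes, of the AP-1 genes fosl1a, fosab, junba and junbb, the Stat3 feedback gene socs3a and the metalloproteinase inhibitor gene timp2b; red points are the 4 high-mmp9 pools and blue points the other 8. In each treatment group the red points lie above the blue ones, for timp2b at 24.6 to 34.1 against 10.9 to 14.8 CPM.

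Few cytokine genes on the list reached the minimum level. Of 53 cytokines and chemokines, 37 had values in the deposited data and 18 had a mean of 1 CPM or more. Of these, 2 were higher (il1b and cxcl18b) and 0 lower, and the median difference was -0.03, beside 0.334% higher and 0.0046 over all genes tested. The neutrophil-attracting chemokine gene cxcl18b (795785) was at 5.47 CPM in control 3, 2.52 in empagliflozin 3, 3.30 in canagliflozin 1 and 2.36 in canagliflozin 2, against 0.584 to 1.92 CPM (difference 0.95 ± 0.18, limma adjusted p 0.0279). Beside it, the chemokine gene ccl27a differed by -1.21 and did not pass (adjusted p 0.401). Its level was 0.0516 CPM in control 3 and 0.124 CPM in canagliflozin 2, both under the level that 3 reads give. The high-mmp9 pools empagliflozin 3 and canagliflozin 1 held 7.72 and 3.25 CPM, within the 1.71 to 10.1 CPM of the other pools.

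Other inflammatory genes that passed were ptgs2b, gpr84 and irf1b. The cyclooxygenase gene ptgs2b (559020) was at 16.5 CPM in control 3, 5.72 in empagliflozin 3, 9.28 in canagliflozin 1 and 16.0 in canagliflozin 2, and at 4.18 to 4.97 CPM in the others (difference 1.06 ± 0.18, limma adjusted p 0.0146). The fatty acid receptor gene gpr84 was at 1.57 to 2.79 CPM against 0.547 to 1.09 CPM (difference 0.84 ± 0.13, adjusted p 0.00698). The interferon regulatory factor gene irf1b was at 2.07 to 7.75 CPM against 0.876 to 1.94 CPM (difference 1.08 ± 0.22, adjusted p 0.0468). None of the 3 overlapped. For il1b and gpr84 the mean of the other 8 pools, 0.467 and 0.783 CPM, was under the minimum of 1 CPM, so these 2 genes entered the test through the high-mmp9 pools.

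In the remaining inflammation lists 1 or 2 genes each were higher, beside 0.334% of all genes. Of 31 antimicrobial and inflammatory metabolism genes tested, 2 were higher (irg1l and ptgs2b) and 0 lower, with a median of 0.06. Of 13 interferon-stimulated genes tested, limma called irf1b higher and 0 lower, with a median of 0.17. DESeq2 called 2, and 4 had an unadjusted p under 0.05, all higher. Over all 11963 genes tested, DESeq2 called 124, and 10.1% had an unadjusted p under 0.05. Of 26 complement and coagulation genes tested, 1 was higher and 1 lower, with a median of 0.05: f3b, which encodes tissue factor, the starter of coagulation (difference 0.66, limma adjusted p 0.0421), and cfd, which encodes complement factor D.

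No cytokine receptor and no gene of Toll-like receptor and NF-kB signalling passed in limma. Over all genes tested, 51.5% had a difference above 0 and 10.1% an unadjusted p under 0.05. The split of the 10.1% by direction is not given here. Of all 11963 genes tested, edgeR called 49 and DESeq2 124. Of 23 receptors tested, 20 had a difference above 0, with a median of 0.18. An unadjusted p under 0.05 was found for 9 (8 higher, 1 lower), and edgeR called 0 and DESeq2 4. Their summed level was 272 to 297 CPM in the high-mmp9 pools and 236 to 259 CPM in the others. In every other list the summed levels overlapped, with the given markers left out. For the Toll-like receptor and NF-kB list they were 620 to 713 CPM against 588 to 636 CPM. Of 22 Toll-like receptor and NF-kB genes tested, 20 were above 0, with a median of 0.11. An unadjusted p under 0.05 was found for 6 (5 higher, 1 lower), and edgeR and DESeq2 called 0 each.

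Of 34 wound and regeneration response genes tested, 0 passed in limma in either direction, with a median of 0.08. An unadjusted p under 0.05 was found for 10 (9 higher, 1 lower), beside 10.1% of all genes tested. For this list edgeR called 1 and DESeq2 3, beside 49 and 124 of all 11963 genes tested. The same values over all genes stand beside the p53 and heat shock lists below. The largest difference of this list was 0.90, in the actin-regulating gene plek2 (limma adjusted p 0.128). The level of plek2 was 6.25 CPM in control 3 and 0.298 to 1.55 CPM in the other 11 pools, so it entered the test through control 3. Within groups its difference was 1.91 in the controls, 0.24 with empagliflozin and 0.64 with canagliflozin. The gene hbegfa, for a ligand of the EGF receptor, differed by 0.50 (adjusted p 0.0660). Of 36 p53 target and cell death genes, limma called 1, as lower (pycard, an inflammasome gene), edgeR 1 and DESeq2 3, and the median was 0.11. At an unadjusted p under 0.05, 10 of these were higher and 2 lower. Of 29 heat shock genes on the list, 0 passed in limma, with a median of 0.01. An unadjusted p under 0.05 was found for 3 (2 higher, 1 lower), edgeR called 0 and DESeq2 1. The small heat shock protein gene hspb9, which is not on that list, passed as higher (difference 0.76, limma adjusted p 0.0406). The inducible chaperone gene hsp70l was at 30.1 CPM in control 3 and at 6.02 to 12.5 CPM in the other 11 pools, a single high pool rather than 4 (difference 0.65, adjusted p 0.420).

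Markers of the cell types in which mmp9 is known to be transcribed were measured beside these genes. Of 25 myeloid cell markers tested, limma called the given marker mmp13a higher and 0 lower, edgeR called 1 and DESeq2 2, and the median was 0.06. At an unadjusted p under 0.05, 6 were higher and 0 lower, among them mmp13a. Over all 11963 genes tested, edgeR called 49 and DESeq2 124, and 10.1% had an unadjusted p under 0.05 in either direction. The other myeloid markers with the smallest p were nccrp1 (difference 0.37, limma adjusted p 0.128), the NADPH oxidase subunit gene ncf1 (0.43, 0.375), the granulin gene grna (0.35, 0.391) and the serglycin gene srgn (0.25, 0.401), and in each the pools overlapped. With mmp13a left out, their summed level was 305 to 370 CPM in the high-mmp9 pools and 293 to 353 CPM in the others. The neutrophil peroxidase gene mpx was at 30.7 to 51.3 against 28.1 to 45.3 CPM, the lysozyme gene lyz at 47.0 to 58.3 against 35.7 to 68.1 CPM, and the macrophage gene mpeg1.1 at 3.57 to 6.56 against 5.19 to 7.17 CPM. All 3 overlapped between the sets of pools. Of 39 epidermis and periderm markers, 0 passed in limma, edgeR or DESeq2, 11 had an unadjusted p under 0.05 (3 higher, 8 lower), and the median was -0.02. Their summed level was 34095.5 to 41410.9 CPM in the high-mmp9 pools and 35179.5 to 44038.6 CPM in the others.

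Markers of other tissues did not pass in limma, edgeR or DESeq2 in either direction. The median difference was -0.05 over 12 ionocyte and mucous cell markers, -0.12 over 17 neuron markers, -0.08 over 23 muscle markers, -0.04 over 24 endothelial and erythroid markers and -0.03 over 17 yolk syncytial layer and liver markers. At an unadjusted p under 0.05 there were 0, 3, 5, 3 and 2 of these markers, all lower except 1 muscle marker. Over all genes tested the share was 10.1% in either direction. Of the 17 neuron markers, 1 had a difference above 0, against 51.5% of all genes. Without control 4 and canagliflozin 4, limma called 2 cytokine receptors higher and 1 lower, 1 wound response gene higher and 1 lower, 1 epidermis marker lower, 2 p53 target genes higher and 1 lower, 1 heat shock gene higher, 2 antimicrobial genes higher and 1 lower, and 1 JAK-STAT gene higher. Over all 11972 genes tested in that fit, 58 were higher and 11 lower, and the list counts were not tested against this. In the other 12 lists the counts in each direction were as given for the 12 pools.

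**Figure D4:**
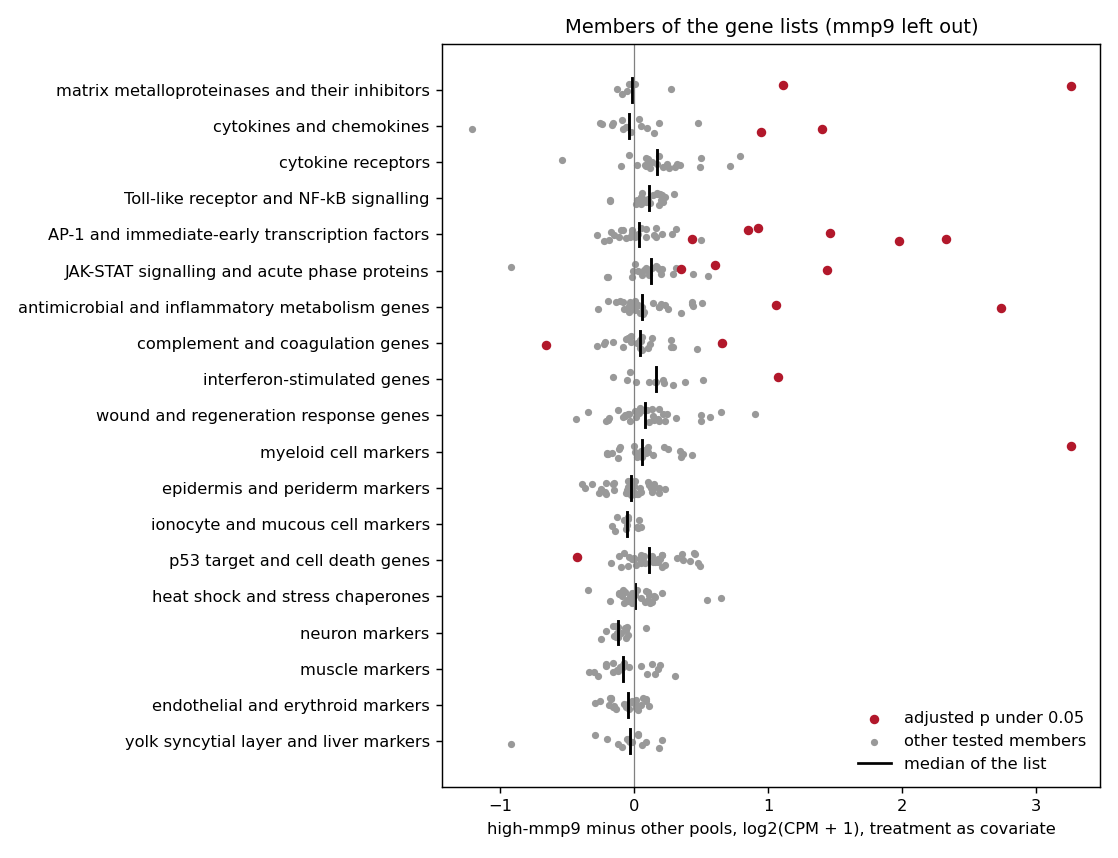
Difference between the high-mmp9 pools and the other pools, on the log2(CPM + 1) scale, for each tested gene of the 19 lists (points) with each list's median (bar); red points passed limma at an adjusted p under 0.05. List medians lie between -0.12 and 0.18, and the AP-1 list holds 6 red points.

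Outside these lists, cbx7a and tcap had the largest differences. The level of cbx7a (550551), a Polycomb chromobox gene, was 27.2 CPM in control 3, 18.5 in empagliflozin 3, 11.7 in canagliflozin 1 and 19.4 in canagliflozin 2, against 1.42 to 5.11 CPM in the others. Its difference was 2.47 ± 0.17 (SE), or 5.54-fold in CPM + 1 (limma adjusted p 3.29e-06), with no overlap. The gene tcap (556258), which encodes the sarcomere protein telethonin, was at 19.5, 4.83, 10.7 and 14.1 CPM against 0.452 to 3.63 CPM. It differed by 2.33 ± 0.19, or 5.02-fold in CPM + 1 (adjusted p 8.10e-06), while the muscle list as a whole had its median at -0.08.

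A pair of paralogous monocarboxylate carrier genes passed together. The level of slc16a9a (795588) was 33.7 CPM in control 3, 2.78 in empagliflozin 3, 6.97 in canagliflozin 1 and 11.9 in canagliflozin 2, against 1.12 to 2.34 CPM (difference 2.02 ± 0.33, limma adjusted p 0.0135). That of slc16a9b (445158) was 46.3, 19.4, 31.6 and 35.0 CPM against 8.13 to 16.5 CPM (difference 1.48 ± 0.18, adjusted p 0.000492). Neither gene overlapped, and slc16a9a spread far more widely among the high-mmp9 pools than its paralogue.

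The vitamin D 24-hydroxylase gene cyp24a1 (100004700) was at 9.45 CPM in control 3, 6.61 in empagliflozin 3, 6.08 in canagliflozin 1 and 4.72 in canagliflozin 2, against 1.44 to 4.57 CPM. Its difference was 1.27 ± 0.15 (limma adjusted p 0.000492), with canagliflozin 2 close to control 2. The unnamed locus si:ch211-153b23.4 was at 7.03 to 23.6 CPM against 2.03 to 5.45 CPM (difference 1.68 ± 0.23, adjusted p 0.00190). Scaffold gene ush1c was highest in empagliflozin 3, at 7.24 CPM, and lowest in control 1, at 0.701 CPM, and its sets overlapped (difference 1.06, adjusted p 0.0192).

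Smaller differences passed in metabolic and regulatory genes. They were 0.58 and 0.66 for the arrestin-domain paralogues arrdc3a and arrdc3b, 0.59 for the polyamine acetyltransferase gene sat1a.2, 0.70 for the cationic amino acid carrier gene slc7a3, 0.61 for the GABA transaminase gene abat and 0.39 for the glycolytic regulator gene pfkfb4b (limma adjusted p 0.0135 to 0.0219). The small heat shock protein gene hspb9 was higher by 0.76 (adjusted p 0.0406). Of these 7 genes, abat, arrdc3b, sat1a.2 and pfkfb4b did not overlap.

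The 4 lower genes differed by less than 1 on the log2 scale. The level of cfd (553553) was 20.3 CPM in control 3, 11.6 in empagliflozin 3, 23.2 in canagliflozin 1 and 18.3 in canagliflozin 2, against 23.5 to 34 CPM in the others (difference -0.66 ± 0.11, limma adjusted p 0.0161). The mitochondrial sulfur dioxygenase gene ethe1 (405865) was at 15.6, 14.4, 16.6 and 15.5 CPM against 16.8 to 24.7 CPM (difference -0.43 ± 0.08, adjusted p 0.0263). Neither overlapped, with gaps of 23.2 to 23.5 and 16.6 to 16.8 CPM. The fucosyltransferase gene fut9d (difference -0.57, adjusted p 0.0232) and pycard, for the inflammasome adaptor ASC (difference -0.42, adjusted p 0.0196), were lower with overlapping pools.

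A reading in separate pools was made by choosing genes in the controls and testing them in the drug-treated pools. In control 3, 55 genes were higher by at least 1 (log2) than the mean of controls 1, 2 and 4, and above each of them. The minimum mean of 1 CPM was taken over all 12 pools, so some of the 55 reached it only through control 3. Examples are il1b, plek2, tm4sf4 and zgc:174917, and such genes are kept in the shares given here. Among the 8 drug-treated pools, with compound as a covariate, 15 of these 55 were higher in empagliflozin 3, canagliflozin 1 and canagliflozin 2 (27.3%; limma adjusted p under 0.05 over 11963 genes). Over all genes tested 15 were higher (0.125%), so in this fit every gene called higher in the drug-treated pools was among the 55. That was not so without empagliflozin 3, where 14 of 17 genes called higher were among those chosen in control 3, without canagliflozin 3 (15 of 19), without empagliflozin 2 or canagliflozin 2 (14 of 15 each) or with a pseudocount of 5 (11 of 15). Without control 4 and canagliflozin 4 the count was again 15. The 15 called in all 8 drug-treated pools were the 12 genes whose call held in each alternative that tested them, and the given markers mmp13a, irg1l and il1b. This match was largely built in. One of those alternatives left out control 3, and its difference then came from the drug-treated pools alone. The drug-treated pools were themselves divided by mmp9, and the 3 markers were named with these data known.

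The difference in the drug-treated pools was above 0 for 53 of the 55 (96.4%), against 51.8% of all genes, and 35 of them (63.6%) had an unadjusted p under 0.05 as higher, against 4.03% of all genes. The median was 0.47, against 0.0062 over all genes. In the drug-treated pools alone the limma adjusted p was 3.44e-05 for cbx7a, 0.000312 for socs3a and for tcap, 0.000327 for timp2b, 0.000969 for fosab and 0.00147 for junbb. It was 0.0277 for atf3 and 0.0269 for junba, the 2 largest among the 12. In the same pools 2 genes were lower (0.0167%): ethe1 (adjusted p 0.0430) and cp, for the copper-carrying plasma protein ceruloplasmin (adjusted p 0.000908). The level of cp was 35.22 CPM in empagliflozin 3, 13.7 in canagliflozin 1 and 17.1 in canagliflozin 2, against 35.7 to 90.7 CPM in the other drug-treated pools. In control 3 it was 40.8 CPM, within the 26.8 to 72.1 CPM of the other controls, and over all 12 pools cp did not pass (adjusted p 0.136).

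**Figure D5:**
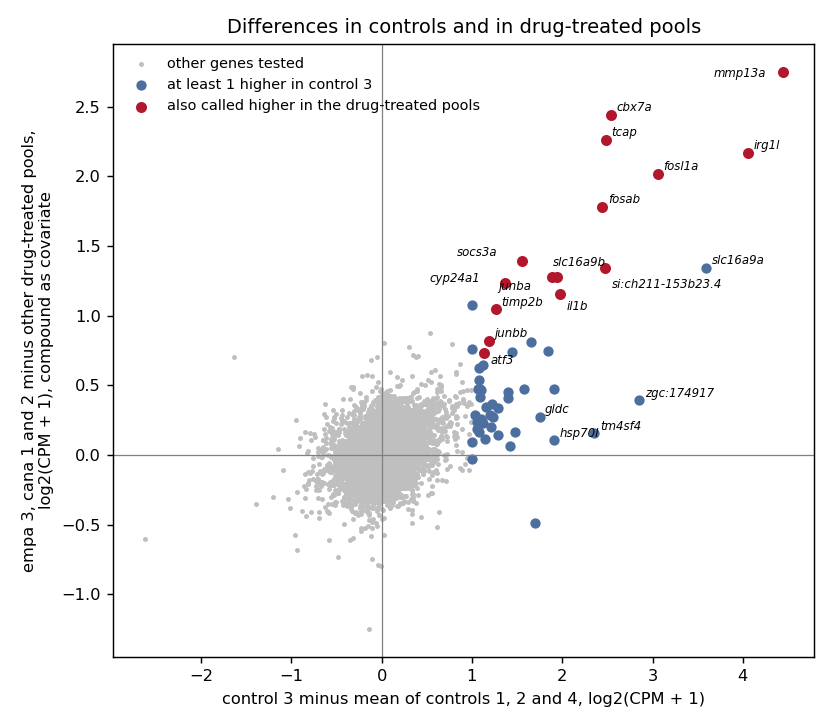
Each tested gene's difference between control 3 and the other controls (horizontal) and between the high-mmp9 and other drug-treated pools (vertical), both on the log2(CPM + 1) scale; blue points are genes at least 1 higher in control 3 and red points those also called higher in the drug-treated pools. All 15 called genes are red, and slc16a9a, tm4sf4, gldc and zgc:174917 are blue points far to the right.

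Whether the difference itself varied between treatment groups was tested for each gene. The control and the empagliflozin groups each held 1 high-mmp9 pool, with no spread of its own and assumed to vary like the others. A single pool and its treatment group thus cannot be told apart in this test. It passed 2 genes (0.0167%; limma F test, adjusted p under 0.05; 270 at an unadjusted p under 0.05). The glycine-cleavage enzyme gene gldc, named after its values were seen, was at 141 CPM in control 3 and 38.7 to 42.8 CPM in the other controls, a difference of 1.75. Its difference was 0.20 in the empagliflozin pools and 0.33 in the canagliflozin pools (adjusted p 0.0109). The tetraspanin-like gene tm4sf4 was at 7.90 CPM in control 3 and 0.526 to 0.922 CPM in the other controls, and its differences were 2.36, 0.56 and -0.15 in the same order (adjusted p 0.0421). Both genes had their highest level of all 12 pools in control 3, and tm4sf4 had a mean of 0.925 CPM over the other 11 pools, so it entered the test through control 3. The count of 2 became 0 without control 2, 4 without canagliflozin 1, 3 without canagliflozin 3 and 1 without each of control 1, control 4, empagliflozin 1, 2 and 4, and canagliflozin 2 and 4. Without control 4 and canagliflozin 4 together it was 1.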

How the data were processed

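The deposited table holds normalized signal per gene for each of 12 pools, in TMM-scaled CPM as the authors made it. Reads counted to genes were scaled to an adjusted library total. That total was 0.939 to 1.03 times the reads counted to genes in the pool. Each value was a whole multiple of what 1 read is worth in its pool (100% of values within 0.001 reads), so reads were recovered for count tests. The submitters' processing notes name FastQC, R 3.6.1 and the build danRer10. Which aligner, counter and filters were used is not given in the sources used here. No coordinates are printed because the reference at hand is of another build. The table holds 14134 genes, of which 2170 with a mean under 1 CPM were set aside.

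The pools were divided by mmp9 at 30 CPM, and log2(CPM + 1) was fitted in limma 3.58.1 (R 4.3.3; empirical Bayes with a mean trend) with treatment as a covariate, mmp9 left out, and Benjamini-Hochberg adjustment over 11963 genes. Values after ± are standard errors. In the fit of 12 pools the median gene's 95% interval was ± 0.19. Alternatives changed the pseudocount, minimum, scaling, covariate, variance model, pools and test (the count tests of edgeR 4.0.16 and DESeq2 1.42.0). The method was tested on simulated data. The sample groups came from the labels. The pools, the given markers and the 19 gene lists were chosen with earlier results of these data known.

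Named genes are the given markers, the 14 largest rises and 14 largest falls that passed, list members that passed and up to 4 more of each list by smallest unadjusted p, the measured metalloproteinases and inhibitors, the 15 largest rises in control 3 and the 8 genes most like mmp9 over the 12 pools, whose correlations are not reported because the pools fall into separate clusters. The genes abat, arrdc3a, arrdc3b, creg2, gldc, hspb9, ier2, sat1a.2, slc7a3, ush1c and zgc:163121 fall outside that rule and were chosen after their values were seen. The marker genes mpx, lyz and mpeg1.1 were chosen as textbook markers of the myeloid list.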

Additional observations from a re-analysis of the deposited data

Results flagged for a closer look

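Within a treatment group of 4 pools, a pool was called far from the rest where its gap to the nearest pool, as a share of the group's range in CPM, was above Dixon's critical value for 4 samples. Among 192 gene and group pairs examined, 44 met this (22.9%). This share cannot be set against a chance rate, because the genes were not drawn at random. They include mmp9, which chose the pools, and genes named for the largest rises in a control pool. The share over all genes is not given here. The pairs are not independent, since many of the genes move together and were chosen for a difference between pools.

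Control 3 was the far and highest control for 28 genes. The share was 0.93 for mmp9, 0.978 for mmp13a, 0.896 for irg1l, 0.912 for il1b, 0.89 for timp2b, 0.963 for timp2a, 0.951 for fosl1a, 0.964 for fosab, 0.904 for junba, 0.909 for junbb, 0.952 for atf3, 0.892 for socs3a, 0.926 for stat3, 0.885 for il6st, 0.97 for cebpb, 0.869 for cebpd, 0.976 for ptgs2b, 0.848 for irf1b, 0.895 for cbx7a, 0.889 for tcap, 0.972 for slc16a9a, 0.884 for creg2, 0.844 for si:ch211-153b23.4, 0.96 for gldc, 0.946 for tm4sf4, 0.871 for hsp70l, 0.926 for plek2 and 0.901 for zgc:174917. Empagliflozin 3 was the far and highest empagliflozin pool for 13 genes, with a share of 0.879 for mmp9, 0.932 for mmp13a, 0.882 for irg1l, 0.96 for il1b, 0.946 for timp2b, 0.858 for mmp14b, 0.916 for cxcl18b, 0.911 for cbx7a, 0.948 for slc16a9b, 0.848 for slc7a3, 0.854 for creg2, 0.876 for si:ch211-153b23.4 and 0.965 for zgc:174917. No canagliflozin pool could stand out in this way where canagliflozin 1 and 2 were both high. Canagliflozin 2 was the far and highest pool for zgc:163121 (0.837) and the far and lowest for tm4sf4 (0.848), and control 3 was the far and lowest for pycard (0.873).

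The test of the difference between treatment groups passed gldc (limma adjusted p 0.0109) and tm4sf4 (adjusted p 0.0421). In both genes the larger difference was that of control 3, the only high-mmp9 pool among the controls, so the pool and its group cannot be told apart. The spread of that lone pool was assumed to be like that of the others. For tm4sf4 the mean over the other 11 pools was 0.925 CPM, so it entered the test through control 3.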

How the results depend on the processing

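The count of 44 genes was 28 with a minimum mean of 5 CPM, 20 without the treatment covariate, 81 with sample weights, 124 in DESeq2, 76 at an adjusted p of 0.1, 80 with log2 mmp9 as a number, 69 without control 4 and canagliflozin 4, and 14 to 58 when 1 pool was left out. No called gene changed direction in any of the 28 alternatives. Calls lost were 28 without control 3, 25 without canagliflozin 2 and 15 without empagliflozin 4 among the 41 genes other than the given markers. The cause of these shifts was not tested.

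Replicate numbers are shared across the groups, and the labels do not say whether they pair the pools. Same-numbered pools correlated at -0.1246 to 0.5919 over 12 pairs, and 3 of 12 pools correlated best with their own number. The highest values were 0.5919 for control 4 with canagliflozin 4 and 0.2564 for control 3 with empagliflozin 3. Whether pools of the same number shared a day or clutch was not tested. With the number as a block, 15 genes passed, all among the 44, and the drug-treated pools gave 8. The block also put the list median at -0.0259 for antimicrobial genes, -0.0764 for epidermis and 0.0593 for p53 targets.

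Of the genes chosen in control 3, the 15 called higher in the drug-treated pools became 4 with no minimum level and 11 to 15 with 1 pool left out, while all genes called higher there numbered 11 to 19 with 1 pool left out. The 2 genes that differed between treatment groups became 1 with a pseudocount of 0.1, 5 with a pseudocount of 5, 1 with a minimum of 5 CPM and 0 to 4 with 1 pool left out. Dropping control 4 and canagliflozin 4, chosen for these results after seeing the data, gave 15 and 1.

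List medians moved as follows. With a pseudocount of 5, cytokine receptors were at 0.0894 and interferon-stimulated genes at 0.0983. With a minimum of 5 CPM, cytokine receptors were at 0.116 and p53 targets at 0.0555. The antimicrobial list was at -0.0044 with sample weights and at -0.017 without control 4 and canagliflozin 4. With 1 pool left out, the range was -0.0271 to 0.0446 for metalloproteinases, 0.0556 to 0.1301 for Toll-like receptor and NF-kB genes and 0.0035 to 0.1325 for antimicrobial genes.

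Low levels limit il1b and gpr84, and many cytokine genes were under the minimum of 1 CPM or absent from the deposited data. With 1 to 2 high-mmp9 pools per group, a list that did not pass is not shown to be unchanged.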
